A study of Homo sapiens with 13 samples.

Results

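The accessibility of 10 imprinted gene loci (H19, IGF2, MEG3, PEG3, PEG10, SNRPN, KCNQ1OT1, GNAS, MEST and PLAGL1) was compared between G1 and M-phase of human T98G cells, a glioblastoma line. The loci were taken as every ATAC-seq peak that overlapped the body of a listed gene extended by 10 kb on each side, with GENCODE release 44 gene models on GRCh37 (hg19). This gave 48 of 129347 peaks in the table. Of these, 9 overlapped an annotated transcription start site (TSS) of any gene and 39 did not. The gene names were listed with earlier results of these data known.

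The study measured the proteins bound to chromatin through the cell cycle and used ATAC-seq, in which the Tn5 transposase cuts open DNA, to see which regulatory regions stayed accessible in mitosis. G1 cells (3 libraries) were starved of serum for 72 h. M-phase cells (3 libraries) were starved for 48 h, then released into serum with nocodazole, a microtubule poison, for 36 h, and the rounded mitotic cells were shaken off. Both groups carried the same T98G genome with no other treatment or engineered allele given, and because the G1 cells had no release into serum and no nocodazole, these agents and the cell cycle phase cannot be told apart.

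At an imprinted gene, the copy inherited from the mother and the copy inherited from the father differ in DNA methylation at an imprinting control region that was set in the germ line, and usually only the unmethylated copy of that region is an active promoter or binds insulator protein. The methylated copy is protected after fertilization by zinc finger proteins such as ZFP57, which binds the methylated hexamer TGCCGC and recruits TRIM28 and DNMT1. Loss of such control causes growth disorders such as Beckwith-Wiedemann, Silver-Russell and Prader-Willi syndromes, and is common in tumours. The reads here were not assigned to a parental copy, so each value sums both copies, and ATAC-seq carries no strand, so the signal inside a pair of overlapping genes belongs to both.

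The values were read counts in peaks that the authors had scaled between libraries, called scaled counts here. Whole reads could be recovered from them, 4333935 to 5365024 in peaks per G1 library and 12470564 to 14202790 per M-phase library, so a low value was better determined in M-phase. The 5 markers of T98G that were looked up (VIM, CD44, FN1, SOX9, CDH2) all had a peak at their TSS. Of 7 markers of blood, epithelium, liver and muscle, 6 had none, and EPCAM had a TSS peak at 62.5 to 120.3 scaled counts. Over all 73121 peaks that passed the filter on low values, 10439 were higher and 9548 lower in M-phase (limma, two-sided, Benjamini-Hochberg adjusted p under 0.05), and this split moved to 6342 higher and 18092 lower with equal totals in peaks, 8875 and 12631 with TMM scaling and 7563 and 10474 with trended loess. Equal totals shifted the median log2 change of all peaks from 0.07 to -0.12.

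Sequences of the reference genome are shown for the peaks that the results below turn on. They are 5′ to 3′ on the plus strand of GRCh37 and take the central 300 bases of a peak, or the whole of a shorter one. The PEG10 sequence (chr7:94286402-94286701) is the centre of a TSS peak at a control region. It lies downstream of the canonical PEG10 TSS (chr7:94285682) and does not include it. The H19 upstream region (chr11:2021576-2021875) and the PEG3 first intron (chr19:57350993-57351157) are control regions whose peak is not at a TSS. The IGF2 sequence (chr11:2182864-2183129) is the member peak with the largest fall in M-phase. Capitals mark matches, on either strand, to the ZFP57 hexamer TGCCGC, the CTCF core GGNGGCAG and the YY1 site GCCATNTT. The first can lie inside the second, as it does in the H19 run CTGCCGCC.
PEG10: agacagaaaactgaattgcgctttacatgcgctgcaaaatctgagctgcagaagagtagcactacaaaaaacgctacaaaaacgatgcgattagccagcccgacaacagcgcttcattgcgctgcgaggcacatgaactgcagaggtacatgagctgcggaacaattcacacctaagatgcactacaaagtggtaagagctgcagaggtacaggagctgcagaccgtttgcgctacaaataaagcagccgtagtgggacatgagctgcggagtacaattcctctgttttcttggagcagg
H19: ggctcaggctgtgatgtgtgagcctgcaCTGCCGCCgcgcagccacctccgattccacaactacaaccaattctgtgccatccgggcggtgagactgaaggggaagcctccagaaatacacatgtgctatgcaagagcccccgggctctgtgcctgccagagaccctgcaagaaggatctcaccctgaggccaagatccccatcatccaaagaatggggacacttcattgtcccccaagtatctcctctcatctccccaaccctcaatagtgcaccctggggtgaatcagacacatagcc
PEG3: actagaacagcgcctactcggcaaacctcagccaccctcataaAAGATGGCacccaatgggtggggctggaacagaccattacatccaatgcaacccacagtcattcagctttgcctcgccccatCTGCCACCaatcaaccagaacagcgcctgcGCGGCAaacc
IGF2: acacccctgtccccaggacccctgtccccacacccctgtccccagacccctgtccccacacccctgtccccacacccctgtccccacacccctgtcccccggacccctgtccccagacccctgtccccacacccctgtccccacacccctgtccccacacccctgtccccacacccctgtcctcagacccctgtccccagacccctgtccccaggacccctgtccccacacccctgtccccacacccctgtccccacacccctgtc

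Accessibility at the imprinted loci was very uneven. Peaks covered the canonical TSS of 3 of the 10 genes (PEG10, KCNQ1OT1 and GNAS), or 30%, where 62.3% of 19881 protein-coding and 20.9% of 18702 lncRNA canonical TSSs were covered. For the other genes the nearest peak was 342 bp (MEST), 552 bp (PEG3), 1.45 kb (IGF2), 2.35 kb (H19), 4.04 kb (SNRPN), 28.1 kb (PLAGL1) and 52.0 kb (MEG3) from the canonical TSS. The canonical H19 start is the 5′ end of long transcripts that reach into its control region, and from the main cluster of H19 starts (12 transcripts) the nearest peak was 2.08 kb away. The strongest 3 peaks, at PEG10, GNAS and KCNQ1OT1, held 80% of the summed mean signal of the 48 peaks. Of the 48 peaks, 25 had a mean under 10 scaled counts, and 24 passed the filter on low values (7 of 9 TSS peaks and 17 of 39 others). The plot of peaks along the gene windows shows the few strong promoters among many weak peaks.

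**Figure D1:**
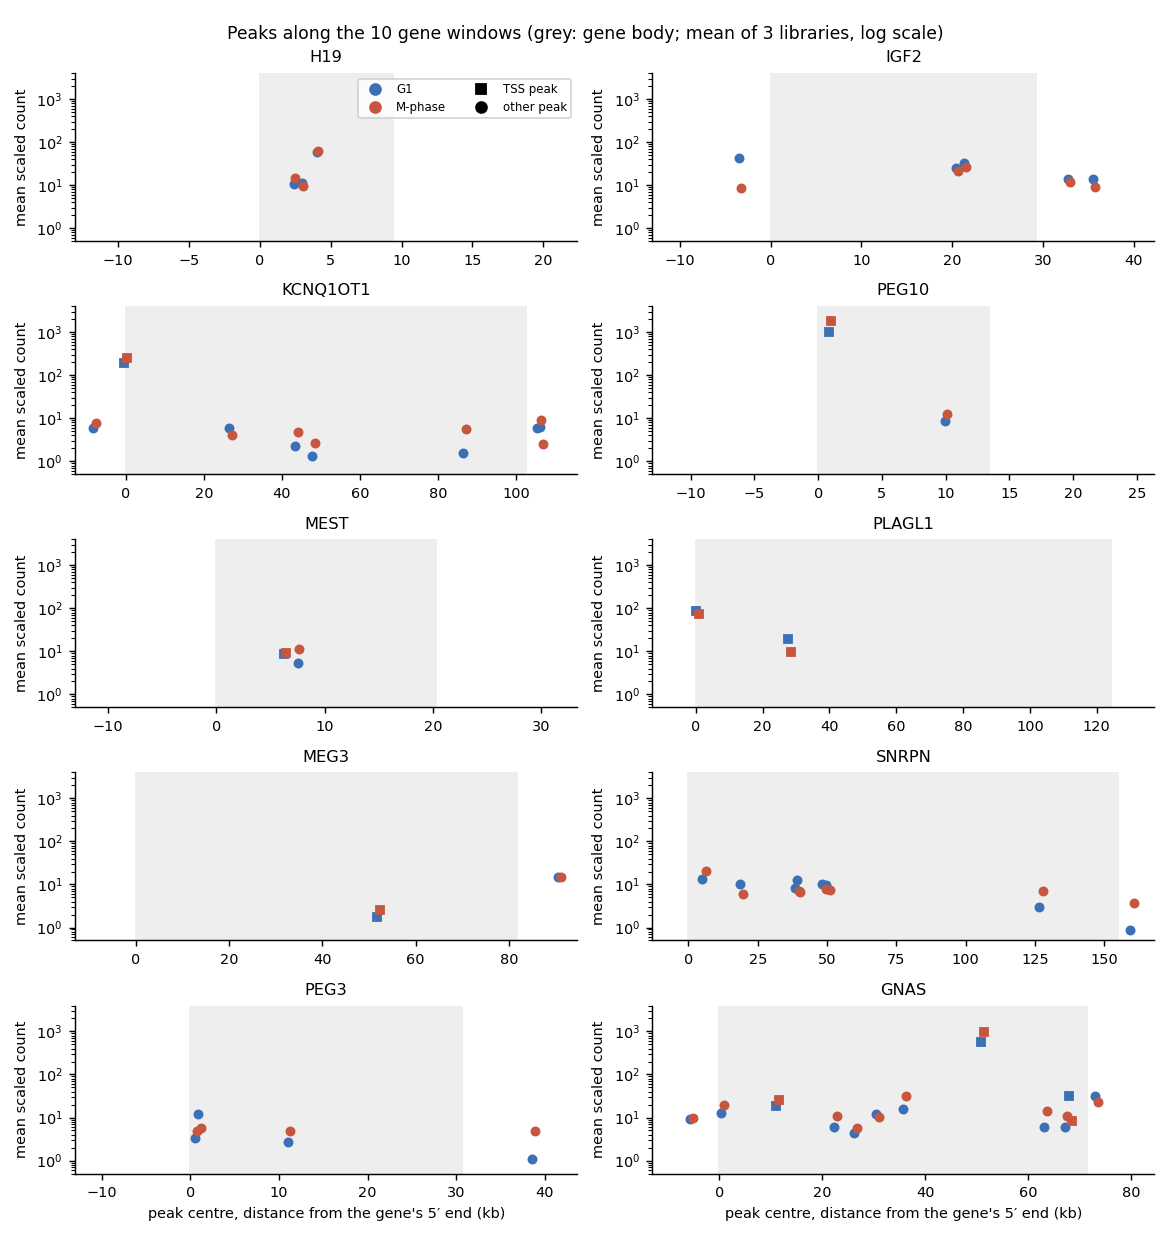
Mean scaled count (log scale) of each of the 48 peaks in G1 (blue) and M-phase (red), 3 libraries each, against the distance of the peak centre from the annotated 5′ end of the gene in kb; squares are TSS peaks, circles other peaks, and the gene body is grey. PEG10, GNAS and KCNQ1OT1 each have a promoter peak above 100 in both phases, whereas no peak of MEG3, SNRPN, PEG3 or MEST reaches 30.

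Among the member TSS peaks that were tested, 2 rose in M-phase (PEG10 and the main GNAS promoter), 1 fell (a TSS inside the 3′ part of GNAS) and 4 passed in neither direction. Over all TSS peaks, 43.2% were higher and 5.94% lower. Among the other member peaks, 1 fell (upstream of IGF2) and 0 rose in limma, beside 15% lower and 6.51% higher over all other peaks. At an unadjusted p under 0.05, 2 other member peaks were higher, both in GNAS, and edgeR and DESeq2 called 0 of them. The median log2 change was 0.09 over the 9 TSS peaks and 0.14 over the 39 other peaks, where it was 0.37 over all TSS peaks and 0.04 over all other peaks. The median of TSS peaks was 0.23 without M-phase replicate 3 and -0.01 with equal totals, and that of the 17 other peaks that passed the filter was -0.01. These shares were not tested against the table.

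**Figure D2:**
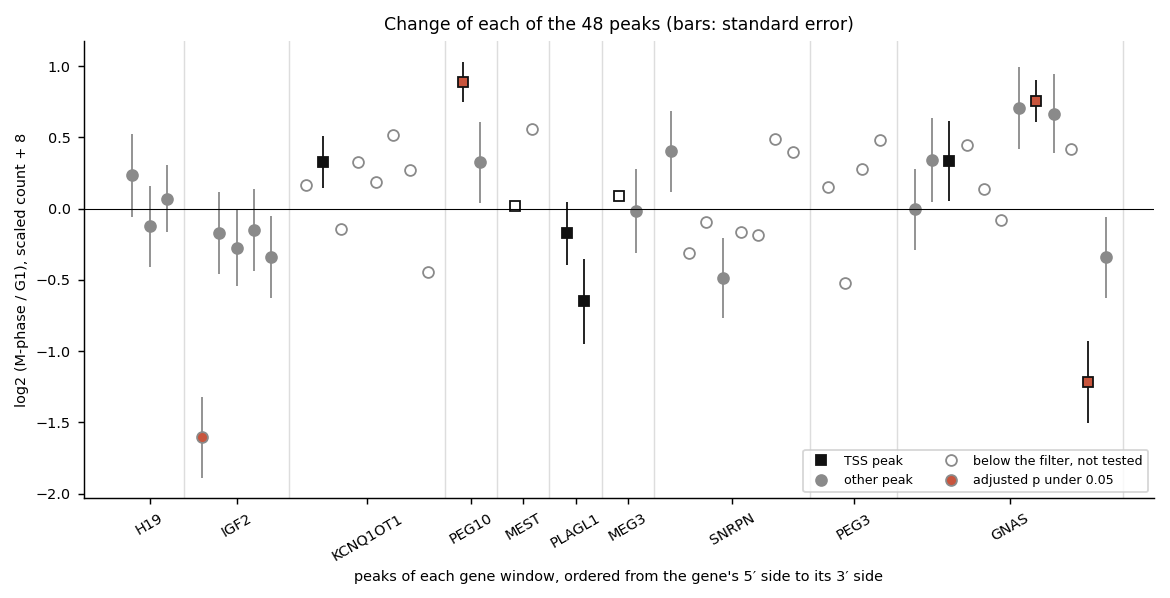
Log2 change (M-phase over G1, on scaled count + 8) of each of the 48 peaks, ordered within each gene from its 5′ to its 3′ side; squares are TSS peaks, circles other peaks, open symbols did not pass the filter, red ones have an adjusted p under 0.05, and bars are standard errors. The 4 red symbols are 2 rises, at 0.89 (PEG10) and 0.76 (GNAS), and 2 falls, at -1.22 (GNAS) and -1.61 (IGF2).

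The PEG10 promoter held the strongest peak and rose in M-phase. PEG10, a retrotransposon-derived gene needed in the placenta and expressed from the paternal copy, starts at chr7:94285637, and its peak (chr7:94285150-94287953) also covered the divergent start of SGCE, so the reads belong to both genes. Its scaled counts were 916.6, 803.1 and 1291.0 in G1 and 1693.5, 1940.3 and 1858.8 in M-phase. All M-phase libraries were above all G1 libraries, and G1 replicate 3 was the highest of its group. The means were 1004 ± 255 and 1831 ± 126 (SD, n = 3), a 1.82-fold rise (log2 change 0.89, SE 0.14, limma adjusted p = 5.18e-07). Per kb of peak its mean over the 6 libraries (505 scaled counts) exceeded that of 99.5% of all TSS peaks, while its log2 change exceeded that of 80% of those tested. Trended loess, which removes the tendency of strong peaks to rise, turned the direction (log2 change -0.43, adjusted p = 1.19e-06), while TMM and equal totals scaling kept the rise. The PEG10 sequence above, with 14 CpGs at 49% GC, held no match to the 3 motifs, nor did the rest of that peak, which draws nothing about binding in these cells.

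In its body PEG10 had 1 more peak, in the 3′ untranslated exon (chr7:94295561-94295769). It read 5.0, 8.6 and 12 in G1 and 12.4, 12.8 and 12 in M-phase. The groups met at 12 (log2 change 0.33, SE 0.28, adjusted p = 0.433).

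GNAS, which encodes the stimulatory G protein alpha subunit and several other products from promoters with opposite imprints, had 12 peaks and both directions of change. The main peak (chr20:57463887-57467820) covered exon A/B, a promoter methylated on the maternal copy, and the promoter of the G protein subunit, so a change at either could not be read alone. It held 597.5, 560.2 and 594.0 scaled counts in G1 and 972.6, 943.1 and 1061.5 in M-phase. The groups did not overlap and spread little, with means of 584 ± 20.6 and 992 ± 61.6 (SD, n = 3). The rise was 1.70-fold (log2 change 0.76, SE 0.15, adjusted p = 3.16e-05), above that of 72.3% of tested TSS peaks. As for PEG10, trended loess turned it (log2 change -0.31, adjusted p = 0.00690).

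A second GNAS peak (chr20:57482872-57483100), at a coding exon in the 3′ part of the gene where shorter transcripts are annotated to start, fell. It held 30.8, 18.8 and 45.0 scaled counts in G1 and 7.4, 9.1 and 8.7 in M-phase, with no overlap and more spread in G1. The mean went from 31.5 ± 13.1 to 8.40 ± 0.889 (SD, n = 3), a log2 change of -1.22 (SE 0.29, adjusted p = 0.000626) that was lower than in all but 0.768% of tested TSS peaks. The peak passed the filter on low values only through its G1 counts, a selection that favours a fall. The fall kept its call under every alternative that could test the peak, loess and the limma fit with no filter (adjusted p = 0.000414) included. Apart from the fit with no filter, these alternatives kept the same filter, so their calls add no separate support for the fall. The filter of at least 10 in every library dropped the peak. The peak had a CpG observed over expected ratio of 0.0887, against 0.912 for the main promoter peak.

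The other GNAS peaks were weak. Upstream, the peak nearest the NESP55 start (chr20:57415323-57415558) read 8.0, 14.1 and 17.0 in G1 and 14.8, 12.4 and 30.8 in M-phase, with overlap (adjusted p = 0.427). The TSS peak of GNAS-AS1, the antisense transcript of the locus (chr20:57425905-57426102), read 21.9, 18.8 and 16 in G1 and 26.8, 23.9 and 26.9 in M-phase. These values did not overlap, but the log2 change of 0.34 (SE 0.28) had an adjusted p of 0.409.

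Of the remaining GNAS peaks, an intronic peak at chr20:57450568-57450863 came closest to the threshold, and it was picked out after its values were seen. It held 14.9, 11.7 and 20.0 scaled counts in G1 and 28.8, 21.4 and 42.8 in M-phase (log2 change 0.71, SE 0.28, adjusted p = 0.0536). It passed with trended loess (adjusted p = 0.0214), the stricter filter (0.0200) and without G1 replicate 3 (0.0292) or M-phase replicate 2 (0.0386). It also passed with the replicate block (0.0466) but under no other alternative. The adjusted p was 0.0954 with TMM, 0.224 with equal totals, 0.0512 with edgeR and 0.0694 with DESeq2. Without M-phase replicate 3, its highest library, the adjusted p was 0.281.

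KCNQ1OT1 kept an open promoter in both phases. This long RNA runs antisense inside KCNQ1, is made from the paternal copy and silences the neighbouring genes in cis, and its promoter is the imprinting control region of that domain. The promoter peak (chr11:2720467-2722178) lay in an intron of KCNQ1 and held 206.8, 185.2 and 193.0 scaled counts in G1 and 251.3, 210.1 and 283.4 in M-phase. All M-phase libraries were higher, M-phase replicate 2 by only a few counts. The 1.27-fold difference (195 ± 10.9 and 248 ± 36.7, SD, n = 3) had a log2 change of 0.33 (SE 0.18) and did not pass (adjusted p = 0.188), and its sign turned with equal totals (-0.01) and loess (-0.19). The change exceeded that of 46.4% of tested TSS peaks. The central 300 bases of this peak held 2 matches to the ZFP57 hexamer, 2 to the CTCF core and 0 to the YY1 site, which can overlap. The whole peak held 166 CpGs. The same window of the main GNAS peak held no match, as at PEG10. The other 7 peaks of the window were below the filter, with means from 2.03 to 7.53 scaled counts.

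H19 and IGF2, a maternally expressed RNA and a paternally expressed growth factor that share enhancers, are separated by a control region upstream of H19 where CTCF binds the unmethylated maternal copy. No peak lay at an annotated start of either gene. The strongest H19 peak (chr11:2021190-2022260) lay upstream of the main cluster of H19 starts, in that control region, which falls in an intron of longer annotated H19 transcripts. It held 60.6, 65.6 and 48.0 scaled counts in G1 and 58.5, 64.7 and 59.7 in M-phase. The groups overlapped throughout (58.1 ± 9.07 and 60.97 ± 3.29, SD, n = 3), with a log2 change of 0.07 (SE 0.23, adjusted p = 0.866) whose sign turned with TMM scaling, with equal totals and without G1 replicate 3. The whole peak held 3 matches each to the CTCF core and the ZFP57 hexamer, of which the H19 sequence above shows 1 that belongs to both. The other 2 H19 peaks, nearby and of means of 10.5 and 12.6, had adjusted p of 0.802 and 0.608.

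The largest change of any member peak was a fall upstream of IGF2. This peak (chr11:2182864-2183129) lay between genes, 3243 bp upstream of the nearest annotated IGF2 start and 413 bp upstream of that of INS, the insulin gene. It held 39.8, 50.0 and 38.0 scaled counts in G1 and 7.8, 7.4 and 10.6 in M-phase. Every G1 library was above every M-phase library by a wide margin, and the mean went from 42.6 ± 6.47 to 8.60 ± 1.74 (SD, n = 3), 4.95-fold higher in G1. The log2 change was -1.61 (SE 0.28, adjusted p = 3.44e-06), lower than in all but 0.871% of tested other peaks, and stayed between -1.49 and -2.32 with a call under every alternative that could test it. Between 18 and 64 reads lay behind each value. This peak too passed the filter on low values only through its G1 counts, a selection that favours a fall. In the limma fit with no filter its adjusted p was 4.63e-07. The other alternatives that tested it kept the same filter, so their calls add no separate support for the fall. The filter of at least 10 in every library dropped this peak.

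As the IGF2 sequence shows, this peak is made of a tandem repeat, the minisatellite known upstream of INS. In the reference, 86.5% of its bases equal the base 14 positions before, the highest self-match over spacings of 6 to 60, and it has 1 CpG. The number of copies in T98G can differ from the reference and was not measured. It was the only 1 of the 48 peaks with a self-match of at least 80%. The other 4 IGF2 peaks all had lower means in M-phase, with log2 changes of -0.15 to -0.34 and none past the threshold (the smallest adjusted p was 0.422).

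**Figure D3:**
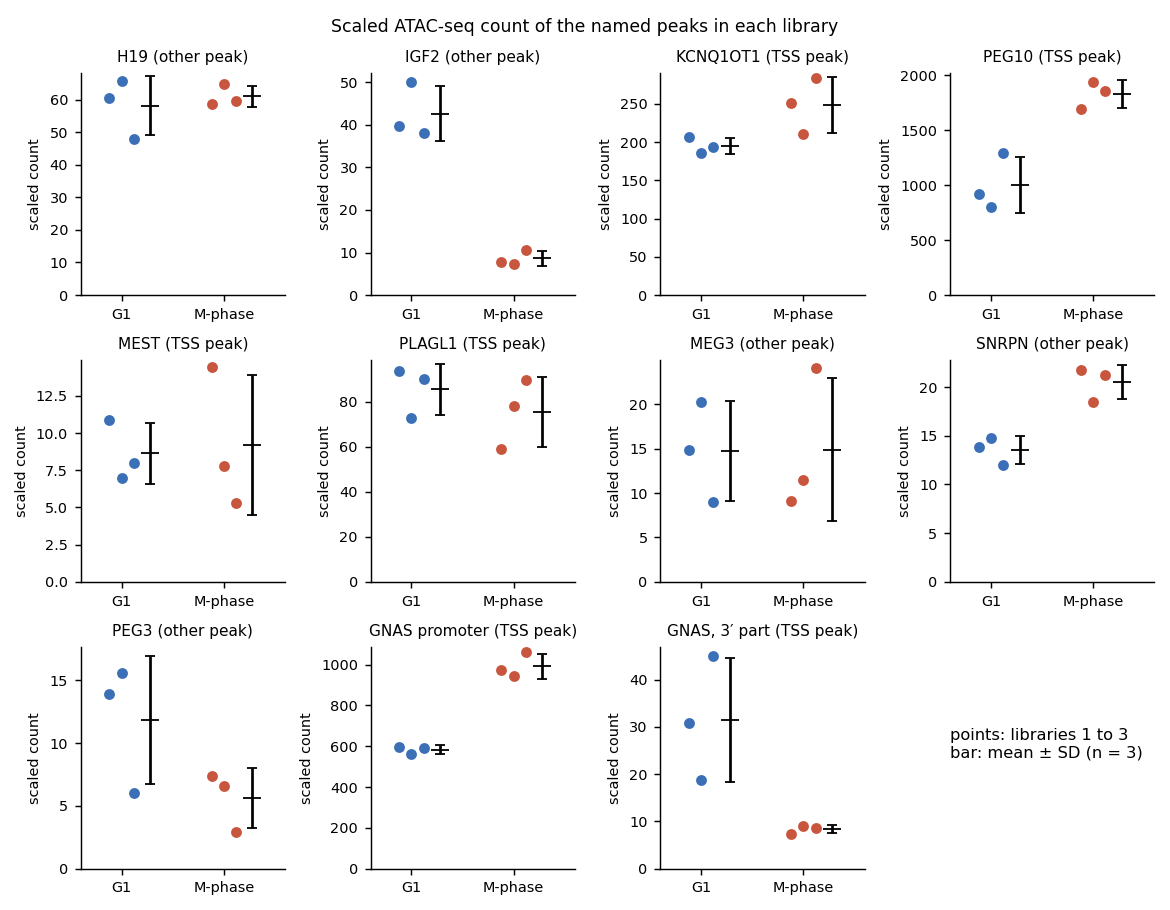
Scaled ATAC-seq count of the 11 named peaks in each library (points, replicates 1 to 3; linear axes from 0) with mean ± SD (n = 3) beside them, for G1 (blue) and M-phase (red). The groups are clearly apart for PEG10, the GNAS promoter, the 3′ GNAS peak and IGF2, and overlap for H19, MEST, PLAGL1, MEG3 and PEG3.

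PLAGL1, a zinc finger gene expressed from the paternal copy, had its strongest peak at an upstream promoter and none at its imprinted one. The peak (chr6:144384817-144385786) covered the 5′ end of its longest transcripts, 55.4 kb from the start of HYMAI, which marks the imprinted promoter and had no peak within 28.1 kb. It held 93.5, 72.7 and 90 scaled counts in G1 and 58.9, 77.9 and 89.5 in M-phase. The groups overlapped (85.4 ± 11.1 and 75.4 ± 15.4, SD, n = 3) and the log2 change of -0.17 (SE 0.22) had an adjusted p of 0.622, which was 0.0493 with equal totals (-0.50). The other peak of the window, at the start of a pseudogene (chr6:144357532-144357918), held 10.9, 16.4 and 32.0 in G1 and 4.9, 6.6 and 17.3 in M-phase. These overlapped, and its log2 change was -0.65 (SE 0.30, adjusted p = 0.0966). The adjusted p was 0.0199 with equal totals, 0.0359 without G1 replicate 1 and 0.0224 without M-phase replicate 3. The peak did not pass under any other alternative. Its adjusted p was 0.143 with loess, 0.113 with edgeR, 0.184 with DESeq2 and 0.465 without G1 replicate 3.

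MEST, a hydrolase gene expressed from the paternal copy, and PEG3, a paternally expressed zinc finger gene, had only faint peaks close to their starts. The MEST peak (chr7:130132268-130132460), at a TSS in an untranslated exon, held 10.9, 7.0 and 8.0 scaled counts in G1 and 14.4, 7.8 and 5.3 in M-phase. The PEG3 peak (chr19:57350993-57351157), in the first intron, held 13.9, 15.6 and 6.0 in G1 and 7.4, 6.6 and 2.9 in M-phase. Both pairs of groups overlapped, and neither peak passed the filter, so their log2 changes of 0.02 and -0.52 were not tested. The PEG3 sequence above is shown because it held a match to each of the 3 motifs within 165 bases (1 to the ZFP57 hexamer, 1 to the YY1 site and 1 to the CTCF core).

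SNRPN, whose start region holds the Prader-Willi imprinting centre, had 8 peaks and none at a TSS. Its strongest peak (chr15:25074060-25074646), in an intron of the longest transcripts, held 13.9, 14.8 and 12 scaled counts in G1 and 21.8, 18.5 and 21.2 in M-phase. The groups did not overlap, yet the log2 change of 0.40 (SE 0.29) had an adjusted p of 0.320. A peak at chr15:25108285-25108495 moved the other way, with 8.9, 16.4 and 13 in G1 and 8.7, 4.1 and 7.7 in M-phase (log2 change -0.48, adjusted p = 0.209). The other 6 peaks were below the filter.

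MEG3, a maternally expressed long RNA, had the least signal of the members for its length, with 2 peaks in a window of 101.6 kb. The peak at an internal MEG3 start (chr14:101297769-101297863) held 1.0, 2.3 and 2.0 scaled counts in G1 and 2.9, 4.1 and 0.5 in M-phase, at most 10 reads. The other (chr14:101335884-101337206) lay beyond the gene in an intron of MIR493HG and held 14.9, 20.3 and 9.0 in G1 and 9.1, 11.5 and 24.1 in M-phase. These overlapped (log2 change -0.01, SE 0.29, adjusted p = 0.980), and the sign of so small a change turned under 5 of 14 alternatives.

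The content of motifs and CpGs was set beside that of the table as a description. Windows of 300 bases around each peak centre were searched, which reach past both ends of shorter peaks. The ZFP57 hexamer was present in the windows of 7 of 39 other member peaks (17.9%) and of 4.57% of all other peaks, and in those of 3 of 9 member TSS peaks (33.3%) and of 26.9% of all TSS peaks. The CTCF core was present in 10 of 39 (25.6%) and 2 of 9 (22.2%), against 13.1% and 22.6%. The YY1 site was present in 2 of 39 (5.13%) and 0 of 9, against 5.06% and 6.57%. The 7 windows of other peaks with a hexamer were at H19, IGF2, PEG3, SNRPN and MEST, with 2 each at H19 and at PEG3. The median CpG observed over expected ratio was 0.569 in member TSS peaks and 0.203 in other member peaks, against 0.732 and 0.185 over the table.

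Other imprinted genes were examined with a list of 33 names. Of these, 19 had a peak at their own TSS, 22 peaks in all, 2 of them peaks described above (the PEG10 peak at SGCE and the peak of GNAS-AS1). No TSS peak was found for 14 genes, among them DLK1, NDN, MAGEL2, NNAT and HYMAI. Of 21 tested peaks, 5 rose and 2 fell, beside 43.2% and 5.94% over all TSS peaks, and the median log2 change of the 22 peaks was 0.13, against 0.37 over all TSS peaks. With trended loess the median turned to -0.32, with 1 higher and 9 lower, and with equal totals to -0.10, with 4 higher and 7 lower. Without G1 replicate 3 it was 0.30, with 8 higher and 2 lower.

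Among them, PHLDA2, a growth-restraining gene of the KCNQ1OT1 domain, rose the most. Its scaled counts were 397.7, 346.9 and 429.0 in G1 and 760.9, 774.6 and 885.4 in M-phase, with no overlap (log2 change 1.03, SE 0.16, adjusted p = 1.21e-07). RB1, the retinoblastoma tumour suppressor, rose by 0.97 (SE 0.19, adjusted p = 2.09e-05), also with loess (0.43, adjusted p = 0.0185), and INPP5F, an inositol phosphatase gene, by 0.87 (SE 0.19, adjusted p = 0.000154). Peaks in this list lay at any annotated start of a gene. Whether the RB1 and INPP5F peaks lay at imprinted starts was not examined. CDKN1C, a CDK inhibitor in the same domain as PHLDA2, was the fifth and smallest rise and is named after its value was seen (log2 change 0.62, SE 0.16, adjusted p = 0.00194), and it lost its call with equal totals (0.27, adjusted p = 0.0665) and its sign with loess (-0.22). With loess PHLDA2 (0.11, adjusted p = 0.464) and INPP5F (0.35, adjusted p = 0.0686) were not called either. Both falls were at ATP10A, a phospholipid flippase gene next to UBE3A. Its promoter peak went from 67.6, 69.5 and 79.0 to 36.3, 46.6 and 41.4 (log2 change -0.70, SE 0.24, adjusted p = 0.0188), and an internal TSS peak from 13.9, 14.1 and 29.0 to 2.9, 3.3 and 2.9 (log2 change -1.25, SE 0.28, adjusted p = 0.000281). The internal peak passed the filter on low values only through its G1 counts, a selection that favours a fall.

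**Figure D4:**
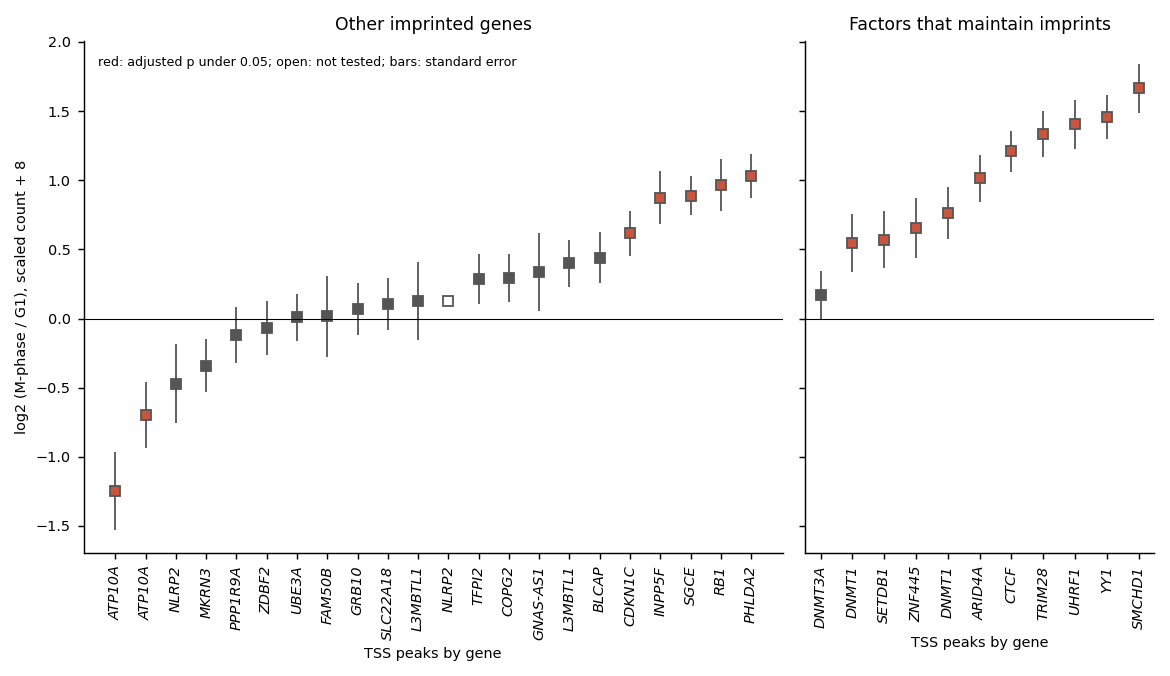
Log2 change (M-phase over G1, on scaled count + 8) of the TSS peaks of other imprinted genes (left) and of factors listed as regulators of imprinting (right), by gene. Red squares have an adjusted p under 0.05, open ones were not tested, and bars are standard errors. The imprinted genes range from -1.25 (ATP10A) to 1.03 (PHLDA2) around 0, while all 11 factor peaks lie above 0.

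The promoters most like the members' strongest were found by the root mean square difference of log2(scaled count + 8) over the 6 libraries, among 13426 TSS peaks of protein-coding genes. For PEG10 they were FAM72A (0.11) and INSIG1 (0.13), for GNAS SLC16A3 (0.07) and DEAF1 (0.10), and for KCNQ1OT1 PLEKHO1 (0.09) and LPCAT1 (0.10). FAM72A, for example, held 995.2, 764.9 and 1122 scaled counts in G1 and 1751.2, 2076.7 and 1853.5 in M-phase, close to PEG10 in every library.

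Trended loess turned the direction at the PEG10 and GNAS promoters, and the falls at IGF2 and in the 3′ part of GNAS kept theirs under every alternative that tested them. Those falling peaks passed the filter on low values only through their G1 counts. The labels list a HiSeq and a NextSeq run for each M-phase replicate, and each M-phase column was taken to join them. The G1 libraries were of a HiSeq only, so the platform and the phase cannot be told apart either. The labels do not say whether replicates came from separate cultures, and the p-values then measure the spread between these libraries, which may be technical.

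**Figure D5:**
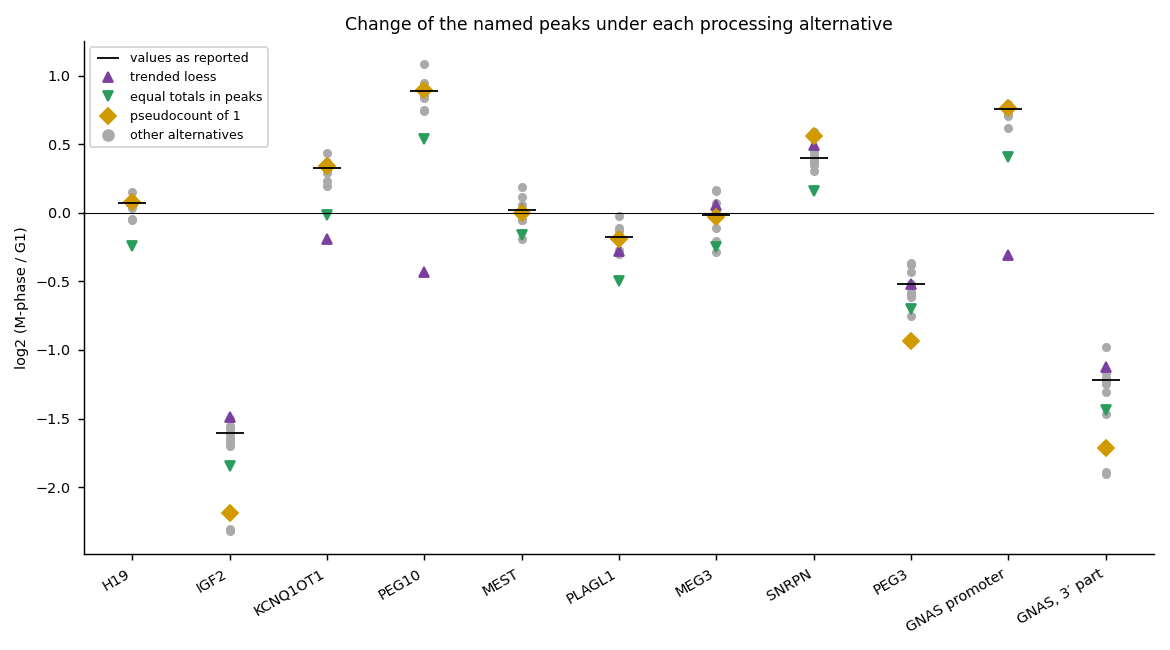
Log2 change (M-phase over G1) of the 11 named peaks as reported (black bars) and under each processing alternative that gave a value (symbols). Trended loess (purple) puts PEG10 at -0.43 and the GNAS promoter at -0.31, below 0, whereas the IGF2 and 3′ GNAS peaks stay below -0.9 throughout.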

How the data were processed

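The table of ATAC-seq peaks was used here. Chromatin fraction and input samples were not analysed here. Per the labels and the study's methods, the authors trimmed adapters with cutadapt, mapped reads to hg19 with Bowtie, removed mitochondrial reads with SAMtools, called peaks with MACS2 on merged replicates and deposited a signal per peak and library, read counts scaled to the smallest library. Tool versions are not given in the sources used here. At least 99.9% of the deposited values were whole multiples of the worth of 1 read (tolerance 0.05). HiSeq and NextSeq runs of an M-phase replicate were taken to share a column and counted as 1 library.

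Peaks were assigned with GENCODE 44 gene models on GRCh37. Models of the 2 groups were fitted in limma 3.58.1 (trend on, variance moderated) to log2(scaled count + 8), over all peaks with at least 10 in at least 3 libraries (at the median library size) and a total of at least 15, and p-values were adjusted by Benjamini-Hochberg over all of them. The pseudocount understates changes of low peaks. Alternatives were TMM (edgeR 4.0.16), trended loess and equal totals scaling, a pseudocount of 1, other filters, a replicate block, each library left out, edgeR and DESeq2 1.42.0 on recovered reads, and other TSS and window definitions. Named peaks were every tested peak at a member's own TSS, every other member peak with an adjusted p under 0.05 and, for a member with neither, its peak of highest mean. Other peaks were picked out after their values were seen. For the other lists the rule took at most 4 rises and 4 falls. The members and lists were chosen with earlier results of these data known. The PEG3 sequence was added after its matches were seen.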

Additional observations from a re-analysis of the deposited data

How the results depend on the processing

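With 3 libraries a group, 24 of the 48 member peaks were too low to be tested. The numbers of member peaks called were 2 TSS peaks higher, 1 TSS peak lower, 0 other peaks higher and 1 other peak lower. Trended loess gave 0 TSS peaks higher, 3 lower and 1 other peak higher, with a median TSS change of -0.28, and it reversed PEG10 (-0.43), the GNAS promoter (-0.31), KCNQ1OT1 (-0.19) and MEG3 (0.0540). Equal totals gave 3 TSS peaks lower and a median of 0.00338 for other peaks, and reversed KCNQ1OT1 (-0.0147) and H19 (-0.24); TMM reversed H19 (-0.0531). With at least 10 in every library, 0 TSS peaks and 0 other peaks were lower, since both falling peaks could not be tested, and 1 other peak was higher. A pseudocount of 1 gave a median of 0.29 for other peaks. TSS peaks within 1 kb gave 2 TSS peaks and 0 other peaks lower, and gene bodies with no extension 0 other peaks lower, as the IGF2 peak changed class or left the window. Leaving out each library gave 1 to 2 TSS peaks lower (2 without G1 replicate 1 or M-phase replicate 3), 0 to 1 other peaks higher (1 without G1 replicate 3 or M-phase replicate 2), a median of other peaks from 0.0503 to 0.137, H19 from -0.0441 to 0.15 and MEG3 from -0.29 to 0.17. edgeR and DESeq2 on recovered reads changed no count, and gave no medians since untested peaks had no value.

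No shared deviation of same-numbered libraries was seen, which does not show how they were prepared. Deviations of same-numbered libraries correlated at 0.0059, -0.0101 and 0.0284, and G1 replicate 2 correlated best with M-phase replicate 1 (0.0454). A fit with the replicate block called 1 other member peak higher (GNAS, adjusted p = 0.0466) and changed no other call of the named peaks.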

Other observations

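Genes listed as regulators of imprinting were examined at their promoters. Of 12 such genes, 10 had a TSS peak, 11 peaks in all, and 10 of the 11 rose and 0 fell (limma adjusted p under 0.05), with a median log2 change of 1.01. Over all TSS peaks, 43.2% were higher and 5.94% lower, with a median of 0.37, and 5 of the 6 TSS peaks of the T98G markers were higher as well, with a median of 1.04. SMCHD1, a chromatin protein of the inactive X and imprinted clusters, held 159.1, 153.9 and 253.0 scaled counts in G1 and 532.7, 664.6 and 610.1 in M-phase (log2 change 1.66, SE 0.18, adjusted p = 1.04e-12). YY1, a zinc finger factor with sites in the PEG3 control region, rose by 1.46 (SE 0.16), UHRF1, which brings DNMT1 to replicated DNA, by 1.40 (SE 0.18), and TRIM28, the corepressor that ZFP57 recruits, by 1.33 (SE 0.16). Only DNMT3A was not called (log2 change 0.17, adjusted p = 0.526), and ZFP57 and DNMT3L had no TSS peak. With trended loess 5 of the 11 peaks were higher and 1, DNMT3A, lower (-0.43). The list was chosen with earlier results known, and no test of the list was made.

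Tandem repeats across the table were counted beside the IGF2 peak. Of all peaks, 931 peaks had a self-match of at least 80%, a measure taken up after that peak was seen. Of the 496 that were tested, 65 (13.1%) were lower and 11 (2.22%) higher in M-phase, where 13.1% and 14.3% of all 73121 tested peaks were.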
